A study of Canis lupus familiaris with 6 samples.

Results

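Gene expression was compared between CMT-U27 canine mammary carcinoma cells grown with myeloid-derived suppressor cells (MDSCs) and the same cells grown alone, on 2 of the 6 arrays of the series. Of 43603 distinct 60-base probes on these arrays, 24539 (56.3%) gave a signal well above background in both cultures on both arrays. These probes were described, and 15841 of them had a ratio of co-culture over monoculture with the same sign on both arrays. The scanner software makes this call for each spot against its local background.

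CMT-U27 is a cell line from a simple carcinoma, an epithelial tumor of the canine mammary gland. P114, from an anaplastic cancer, and CMT-U309, from a spindle cell tumor, were the other lines of the series, with 2 arrays each. All lines were kept in RPMI-1640 with heat-inactivated fetal bovine serum. For co-culture, sorted MDSCs were placed in culture inserts above the tumor cells for at least 72 h according to the sample labels, whereas the study's methods give a shorter time. According to the methods the MDSCs were sorted from the blood of healthy dogs. A monoculture received no MDSCs, and no other control was hybridised. RNA of both cultures was labelled with different dyes and hybridised together on an Agilent canine array. Array 1 carried co-culture RNA in Cy5 (red) and monoculture RNA in Cy3 (green), and on array 2 the dyes were exchanged. Both arrays held the same pair of RNA samples, so CMT-U27 had n = 1 for each culture condition. No test between the conditions was therefore possible within this line, and the difference between its arrays shows dye and array error only.

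MDSCs are immature myeloid cells of the monocyte and granulocyte lineages that accumulate in tumor-bearing animals and dampen T cell responses. They act on tumor cells through cytokines and other secreted factors, many of which signal through JAK kinases and STAT transcription factors or through NF-kB. Carcinoma cells carry claudins, keratins and E-cadherin, which hold an epithelium together, and part of these are replaced by vimentin and matrix genes when cells take on a mesenchymal state.

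The probes on which the largest differences rest are given by their first 30 bases, read from the scanner files, with positions in the dog genome build canFam2 that these files name. Capitals mark the longest run that both of 2 neighbouring probes of CFL1, the gene of the actin-severing protein cofilin, share within these 30 bases. The neighbouring probes map to chr18:54432833-54433107 and chr18:54432845-54433119, and the third CFL1 probe to chr18:54433633-54433692. The CD74 probe maps to chr4:61899122-61900202, the SF3B4 probes to chr17:62292272-62292331 and chr17:62289234-62291565, and the TRMT11 probe to chr1:67974068-67974127. The probe of CD74, the invariant chain of class II antigen presentation, and the pair of probes of SF3B4, a splicing factor, are shown as a gene with a large difference at a bright probe and as a gene whose probes gave like values. TRMT11, a tRNA methyltransferase subunit, gave one of the lowest ratios.
CFL1 probe 1: aaggatgccatcAAGAAAAAGCTGACcggg
CFL1 probe 2: AAGAAAAAGCTGACtgggatcaagcatgag
CFL1 probe 3: ttttcccctggtcttggcactcatggaaac
CD74: ttgaaatgagcaagaactccctggagaaga
SF3B4 probe 1: ttaattttgcttcatttgacgcttcggatg
SF3B4 probe 2: ccattcccaccaagtgggatgccccatcca
TRMT11: ggtaggttcgtttaatttggtttctgattg
Probes 1 and 2 of CFL1 overlap by 48 bases, of which 47 are alike. The position of a probe within exons or untranslated regions was not analysed here.

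Signal differed between the channels in a way that followed the cultures and not the dyes. On array 1 the monoculture channel had 77.0% of its spots well above background and the co-culture channel 61.3%, and on array 2 the values were 70.8% and 58.4%. The median signal over local background was 113 for monoculture and 33.4 for co-culture on array 1, and 69.0 and 23.3 on array 2. No spot was saturated. The 22 probes spotted repeatedly had a median SD of their log2 ratio of 0.07 on array 1 and 0.08 on array 2. Across the 24539 probes the ratios of the 2 arrays had a Pearson correlation of 0.42, as a description of arrays that share their RNA. The median log2 ratio was 0.01 on array 1 and -0.02 on array 2.

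Many more probes were higher than lower in co-culture at a difference of 2-fold or more. In co-culture, 183 probes (0.746% of those measured) were at least 2-fold higher on both arrays, and 13 (0.053%) were at least 2-fold lower on both. Of the higher probes, 31 passed 3-fold and 2 passed 4-fold on both arrays, and none of the lower probes passed 3-fold. Without a threshold the numbers were near each other, with 7766 probes above 0 on both arrays and 8075 below. Another 7 probes were past 2-fold in opposite directions on the 2 arrays. On the array where its ratio was smaller, the nearest probe inside the 2-fold limit stood at 1.004 and the nearest outside at 0.998, and on the lower side at -1.01 and -0.99. When the signals were corrected with an added offset of 50 and loess, 38 and 2 probes remained past 2-fold, all of them among the 183 and 13. When 1 channel well above background on each array sufficed, 195 probes were higher and 232 lower, so the split between higher and lower depended on which dim probes were let in.

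**Figure D1:**
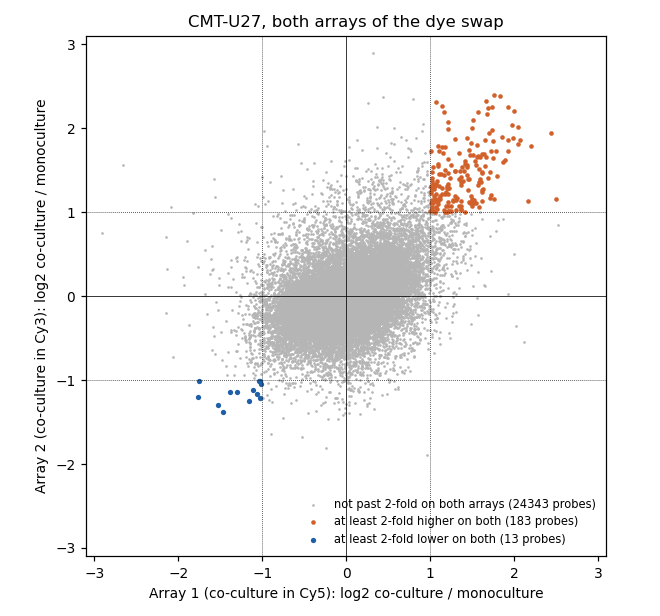
Log2 ratio of co-culture over monoculture in CMT-U27 for the 24539 measured probes, array 1 on the horizontal axis (co-culture in Cy5) and array 2 on the vertical axis (co-culture in Cy3). The 183 probes in the upper right corner and the 13 in the lower left lie past 2-fold, marked by dotted lines, on both arrays.

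The 12 named genes with the largest higher ratios ranged from CFL1 to ZYX, and all of them were at least 3-fold higher on both arrays. Because RNA was measured in bulk, a change in the share of a cell type or state and a change in RNA per cell cannot be told apart. CFL1 had a processed signal of 16919 in co-culture and 4111 in monoculture on array 1, and of 10794 and 2674 on array 2. Its log2 ratios were 2.04 and 2.01, a 4.12-fold and a 4.04-fold difference, and the arrays differed by far less than the cultures did. CD74 had signals of 20991 in co-culture and 5003 in monoculture on array 1, and 13145 and 3629 on array 2, with log2 ratios of 2.07 and 1.86. Co-culture was higher than monoculture for both genes whichever dye it carried.

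Zyxin (ZYX), a focal adhesion protein, had log2 ratios of 1.68 and 2.17, from signals of 338 against 105 and 246 against 54.6. A second ZYX probe gave 1.66 and 2.32. Among RNA-processing genes, the splicing factor SF3B4 had ratios of 1.92 and 2.25, with signals of 573 against 151 and 364 against 76.5. Its second probe gave 1.73 and 1.99. DDX39B, an RNA helicase of splicing and mRNA export, had signals of 685 against 189 and 491 against 131 and ratios of 1.86 and 1.90. These probes stood at similar ratios in both dye orientations.

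The nucleoside transporter SLC29A1 had ratios of 1.93 and 1.87. UCP2, a carrier of the inner mitochondrial membrane, had ratios of 1.84 and 2.39, and the mitochondrial carrier SLC25A39 1.76 and 2.39. For UCP2 and SLC25A39 the arrays lay 0.28 and 0.32 to either side of their mean. NAPA, an adaptor that takes SNARE complexes apart after membrane fusion, had ratios of 1.92 and 1.73. Glycogen phosphorylase PYGB had 1.73 and 2.26, the ubiquitin ligase RNF167 1.70 and 1.95, and MLF2 2.21 and 1.79. With the added offset of 50 and loess, the mean ratio fell below 2-fold for SLC29A1 (0.68), UCP2 (0.76), NAPA (0.82) and ZYX (0.95), and was 1.98 for CD74.

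Other probes past 2-fold fell outside the rule by which genes were named and were picked after their values were seen. STEAP4, a metalloreductase, had log2 ratios of 2.45 and 1.94, but its symbol is not in the dog reference table used here. A probe annotated as a fragment of pyruvate kinase M had 2.0 and 2.21. A probe annotated as profilin 1 had 1.87 and 1.60, and alpha-actinin ACTN1 1.37 and 1.42. A second ACTN1 probe gave 0.39 and 0.99. VAMP8, a SNARE of secretory vesicles, had 1.30 and 1.14. Lactoferrin (LTF) had 1.54 and 1.11, and BPI 1.20 and 1.01. Their other measured probes did not pass 2-fold on both arrays. These gave 1.17 and 0.67, and 0.21 and 0.63 for LTF, and 1.00 and 0.75, and 0.35 and 0.40 for BPI. LTF and BPI are antibacterial proteins stored in neutrophil granules, and lactoferrin is also a milk protein. Other neutrophil genes, measurable in monoculture only, had ratios below 0, with -0.14 and -0.98 for MPO and -0.54 and -1.81 for CSF3R.

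Few named genes were lower. Of the 13 lower probes, 4 carried a gene name in the reference, against 116 of the 183 higher ones, which stood for 102 genes. UBXN2B had signals of 241 in co-culture and 505 in monoculture on array 1 and 176 and 395 on array 2, with log2 ratios of -1.07 and -1.16. TRMT11 had ratios of -1.02 and -1.21. TNNI2, a troponin subunit of fast skeletal muscle, had -1.02 and -1.04, and ITGB1BP2, or melusin, -1.75 and -1.01. These 4 were about 2-fold lower in either dye, except for melusin on array 1. With the added offset of 50 and loess, the mean of each fell short of 2-fold. It was -0.71 for UBXN2B, -0.996 for TRMT11, -0.82 for TNNI2 and -0.64 for ITGB1BP2. Just short of the threshold on 1 of the arrays were the transporter ABCC5 (-1.10 and -0.98), LOC481674 (-1.34 and -0.94), MIER3 (-0.94 and -1.17) and PIGA (-1.02 and -0.93). MBD5, DYRK1A and the kinesin KIF3A lay between -0.87 and -0.95 on each array. DYRK1A had a pair of other measured probes, which gave -0.15 and -0.13, and 0.08 and 0.03. A second KIF3A probe gave 0.02 and -0.14, a second melusin probe -0.60 and -0.36, and the other TRMT11 probes -0.37 and -0.82, and -0.34 and -0.62.

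**Figure D2:**
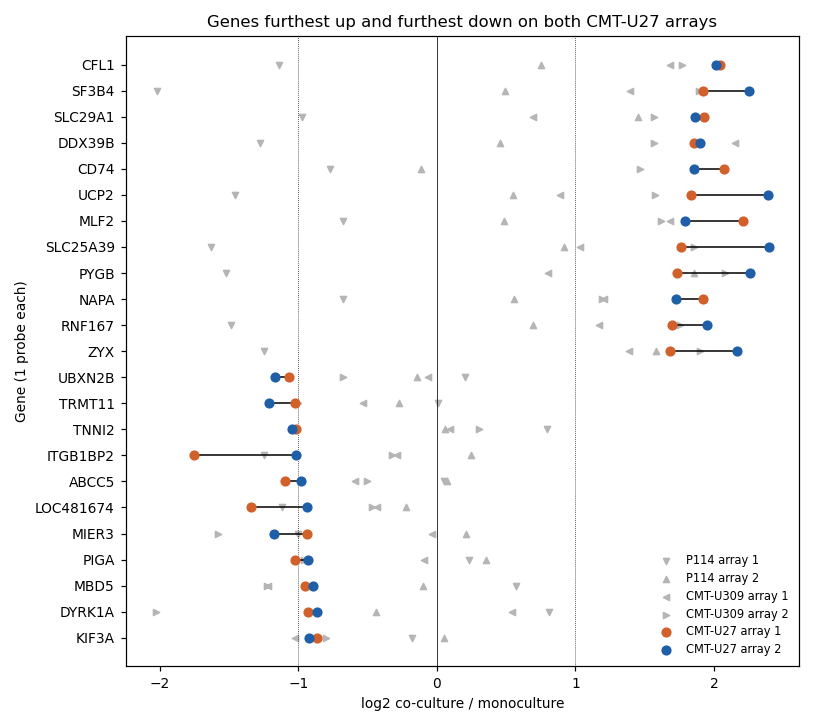
Log2 ratio of co-culture over monoculture for the 12 genes furthest up and 11 of the 12 furthest down on both CMT-U27 arrays, 1 probe each. Orange and blue points are CMT-U27 arrays 1 and 2, joined by a line, and grey triangles are the 4 arrays of P114 and CMT-U309; dotted lines mark 2-fold. CMT-U27 points lie above 1.6 for the upper genes and below -0.8 for the lower ones, while P114 array 1 lies below 0 for each of the upper genes. Grey points are drawn also where the probe was not well above background.

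Different probes of one gene often disagreed in size. Of the 102 named genes with a probe at least 2-fold higher, 57 had 2 or more measured probes, and in 8 of these every measured probe passed 2-fold. The 83 remaining probes of those genes had median log2 ratios of 0.48 and 0.60 on arrays 1 and 2. Of these, 66 were above 0 on both arrays and 2 were below 0 on both. CFL1 showed the widest split: its overlapping probes had ratios of 2.04 and 2.01, and 1.98 and 1.88, while probe 3 had 0.11 and 0.09. Probe 3 was measured at 150354 against 139609 on array 1 and 79589 against 74669 on array 2, so it showed nearly no difference between the cultures. For SLC29A1 a second probe gave 0.50 and 0.35, and for PYGB 0.81 and 1.40. Direction was therefore shared by most probes of a gene, while the size depended on the probe, and the fold change of a gene with a single probe carries this uncertainty.

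**Figure D3:**
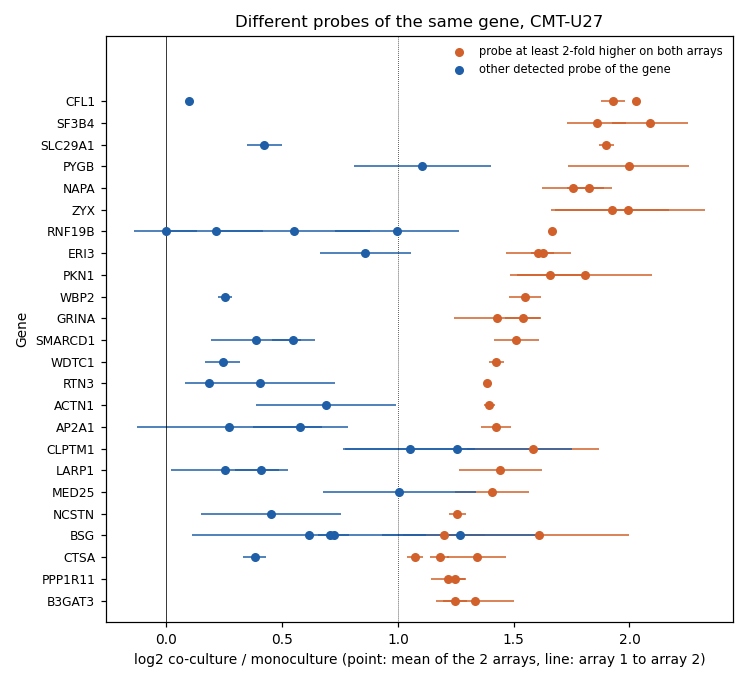
Log2 ratio of co-culture over monoculture for the measured probes of 24 genes with several measured probes in CMT-U27, in the order of their highest probe. Points are means of both arrays and lines run from array 1 to array 2, with probes past 2-fold on both arrays in orange and the gene's other probes in blue. CFL1 and SLC29A1 have blue points far below their orange ones, whereas ZYX, NAPA and SF3B4 have orange points only.

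The ratio also moved with the base composition of the probe. Probes with up to 35% G and C had a median log2 ratio of -0.23 on array 1 and -0.14 on array 2, and probes above 60% had 0.25 on both. The 183 higher probes had a median GC content of 51.7%, the 13 lower ones 36.7%, and all measured probes 43.3%. The share of probes at least 2-fold higher was 0.0471% up to 35% GC, 2.05% between 55 and 60%, and 0.594% above 60%. After each array's median for probes of like GC content was subtracted, 139 probes were at least 2-fold higher, of which 127 were among the 183, and 7 were lower, all among the 13. The part of probe composition in single values was not tested. Under this correction CFL1 had a mean of 1.97, CD74 of 1.90 and ZYX of 1.79. Among the lower genes, UBXN2B and TRMT11 each had a mean of -0.93, TNNI2 of -1.17 and ITGB1BP2 of -1.23.

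**Figure D4:**
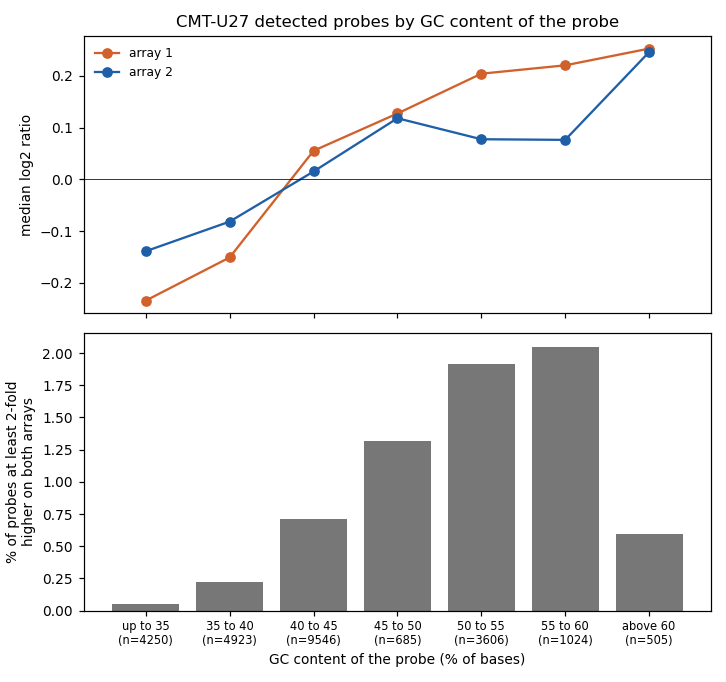
CMT-U27 probes grouped by the GC content of the probe, in percent of its bases, with the number of probes under each group. The upper panel gives the median log2 ratio of co-culture over monoculture on each array, which runs from below 0 to above 0 as GC content grows, and the lower panel the percentage of probes at least 2-fold higher on both arrays, highest between 55 and 60% GC.

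Gene lists were read at the brightest measured probe of each gene. Among all 8172 genes with a name in the reference, 2680 (32.8%) were higher on both arrays and 2822 (34.5%) lower on both, 65 and 3 of them by at least 2-fold, and the medians were 0.02 and -0.03. Members of the lists named beyond those past 2-fold and the 2 with the largest equal-sign ratios are examples picked after their values were seen. Genes of antigen presentation were mostly higher. The list's medians were 0.32 and 0.24, and 0.29 and 0.23 after the correction for GC content. Of 22 measured, 12 were higher on both arrays, 1 was lower, and 9 had opposite signs. The lower one, DLAT, was taken in by its name alone and is a subunit of pyruvate dehydrogenase. CD74 led the list, and TAPBP, or tapasin, which loads peptides onto class I molecules, had log2 ratios of 1.11 and 1.19. A second TAPBP probe gave 0.38 and 0.46. PSME1, a proteasome activator, had 1.03 and 0.45, the class I gene DLA-12 0.84 and 0.45, HLA-DMA 0.59 and 0.38, and the class II transactivator CIITA 0.52 and 0.29. The class II chain DLA-DRA, in contrast to CD74, had opposite signs, -0.01 and 0.37.

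Interferon-stimulated genes showed a mixed picture. Of 33 measured, 15 were higher on both arrays and 6 lower, with medians of 0.12 on each array. GBP1, an interferon-induced GTPase, was the 1 member past 2-fold, with signals of 160 against 68.1 and 121 against 45.5 and ratios of 1.24 and 1.41. PARP9 had 0.55 and 0.37. In contrast, ISG15 had -0.36 and -0.20, IFI44 -0.30 and -0.23 and IFI44L -0.39 and -0.24. In the pathway of the interferon-lambda receptor, 7 of 12 listed genes were measured, 3 higher on both arrays and 2 lower, with medians of 0.08 and 0.10. STAT2 had ratios of 0.30 and 0.15 and IL10RB, the shared receptor chain, 0.08 and 0.39. JAK1 had -0.52 and -0.11.

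Among cytokines, chemokines and NF-kB response genes, 20 of 37 measured were higher on both arrays and 8 lower. Their medians were 0.29 and 0.14, and 0.19 and 0.18 after the correction for GC content. No gene of the list passed 2-fold on both arrays. IL1RN, the interleukin 1 receptor antagonist, came nearest, with 1.21 and 0.99 from signals of 251 against 109 and 171 against 86.1. The apoptosis inhibitor BIRC3 had 0.84 and 0.81, the receptor CD40 0.70 and 1.07, and NFKB2 0.90 and 0.73. The chemokine CCL17 had -0.82 and -0.58, and NFKB1, which with NFKB2 encodes DNA-binding subunits of NF-kB, had -0.50 and -0.19. The NF-kB subunit genes thus lay on opposite sides of 0.

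Of 21 measured STAT3 target genes, 12 were higher on both arrays and 1, MMP2, was lower. The gelatinase MMP9 had log2 ratios of 1.34 and 0.94, and its second measured probe gave 1.22 and 0.72. MYC had 0.58 and 0.55 and PIM1 0.43 and 0.41. The list's medians were 0.40 and 0.17, and 0.22 and 0.14 after the correction for GC content. MMP13, or collagenase 3, from the list of matrix proteases and inhibitors, had 1.31 and 0.78, whereas MMP2 had -0.24 and -0.69 and the serpin SERPINB5 -0.33 and -0.47. In that list 11 of 28 measured genes were higher on both arrays and 9 lower. Among 22 measured angiogenic factors 10 were higher and 3 lower. SEMA3F had 0.93 and 0.59, HBEGF 0.90 and 0.32 and VEGFA 0.58 and 0.31.

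Epithelial genes were mostly higher. Of 33 measured, 19 were higher on both arrays and 6 lower, with medians of 0.40 and 0.12. After the correction for GC content these medians were 0.24 and 0.08. RAB25, a small GTPase of epithelial vesicle recycling, had ratios of 1.15 and 2.26, from signals of 393 against 178 and 427 against 88.9. Its difference passed 2-fold on either array but the arrays lay far apart. The tight junction protein CLDN3 had 1.07 and 0.91 and CLDN7 0.41 and 0.57, whereas TJP1 had -0.56 and -0.29 and EPCAM -0.55 and -0.08. Mesenchymal genes had medians of 0.01 and 0.09, with 8 of 22 higher on both arrays and 3 lower. Transforming growth factor TGFB1 had 0.90 and 0.92, with a second probe at 0.86 and 0.85, and tropomyosin TPM2 -0.85 and -0.49, with a second probe of opposite signs at -0.40 and 0.36. In the list of actin cytoskeleton genes and their regulators, 19 of 43 were higher and 7 lower, led by ZYX, with RAC1 at 1.31 and 0.85. ARPC1B, a subunit of the actin-nucleating Arp2/3 complex, had -0.55 and -0.66.

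Cytosolic ribosomal protein genes had medians of -0.20 and -0.25, the lowest of the lists on array 2 and next to oxidative phosphorylation on array 1. Of 51 measured, 30 were lower on both arrays and 5 higher, none by 2-fold. RPL35A had -0.63 and -0.59 at its brightest probe and smaller negative ratios at its other measured probes, and RPS24 -0.94 and -0.53, while RPL36 stood out upward with 0.83 and 0.69. The RPL36 probe has 63.3% GC and the RPL35A probe 35%, and after the correction for GC content the list's medians were -0.12 and -0.19. In oxidative phosphorylation 21 of 58 genes were lower and 13 higher, and the medians differed between arrays, -0.21 and 0.01. ATP5D, a subunit of ATP synthase, had 0.87 and 0.70, and NDUFA4 -0.72 and -0.39. Cell cycle and replication genes had 23 of 47 lower and 13 higher, with medians of -0.10 and -0.07. The clamp loader subunit RFC3 had -0.81 and -0.65 and CDK1 -0.67 and -0.30, whereas the phosphatase CDC25B had 0.86 and 1.39 and E2F1 0.77 and 0.80.

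Glycolysis and hypoxia genes were higher in 19 of 30 and lower in 4, with medians of 0.28 and 0.21. After the correction for GC content these medians were 0.32 and 0.25. Phosphofructokinase PFKP had 1.11 and 0.65, hexokinase HK2 0.52 and 0.53, and enolase ENO1 0.49 and 0.74, while PFKM had -0.48 and -0.28. A second HK2 probe had opposite signs, -0.38 and 0.24. Of 25 genes of cholesterol and fatty acid synthesis, 13 were higher and 9 lower. The regulator SREBF2 had 0.93 and 1.17 and NSDHL 0.70 and 1.28, but CYP51A1, another enzyme of cholesterol synthesis, had -0.67 and -0.34.

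The remaining lists held no gene past 2-fold on both arrays at its brightest probe. Among mammary hormone receptor and luminal genes, 10 of 16 were higher and 4 lower, with AGR2 at 0.83 and 1.27 and EGFR at 0.74 and 0.78. Dimmer EGFR probes gave 1.28 and 1.14, 1.27 and 0.60, and 0.19 and 0.62. The Wnt pathway had 13 of 26 higher and 3 lower, with the Dishevelled genes DVL3 at 0.94 and 0.83 and DVL2 at 0.90 and 0.71. The Wnt list's medians were 0.24 and 0.17, and 0.10 and 0.11 after the correction for GC content. Integrins and laminins had 12 of 21 higher and 4 lower, with ITGA3 at 0.49 and 0.75 and ITGB7 at 0.51 and 0.61. A second ITGA3 probe had opposite signs, 0.72 and -0.25. Apoptosis genes were balanced, 8 of 27 higher and 7 lower, with BAK1 at 0.93 and 0.64. Immediate early genes had 8 of 22 higher and 4 lower, with JUND at 1.17 and 0.62 and EGR1 at 0.57 and 0.65. In the heat shock and unfolded protein response, 12 of 33 were higher and 9 lower, with CHAC1 at 0.55 and 0.65 and SEL1L at 0.52 and 0.49. Metal and redox genes had 8 of 18 higher and 5 lower, with MT1E at 0.42 and 0.75 and GPX1 at 0.49 and 0.44.

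**Figure D5:**
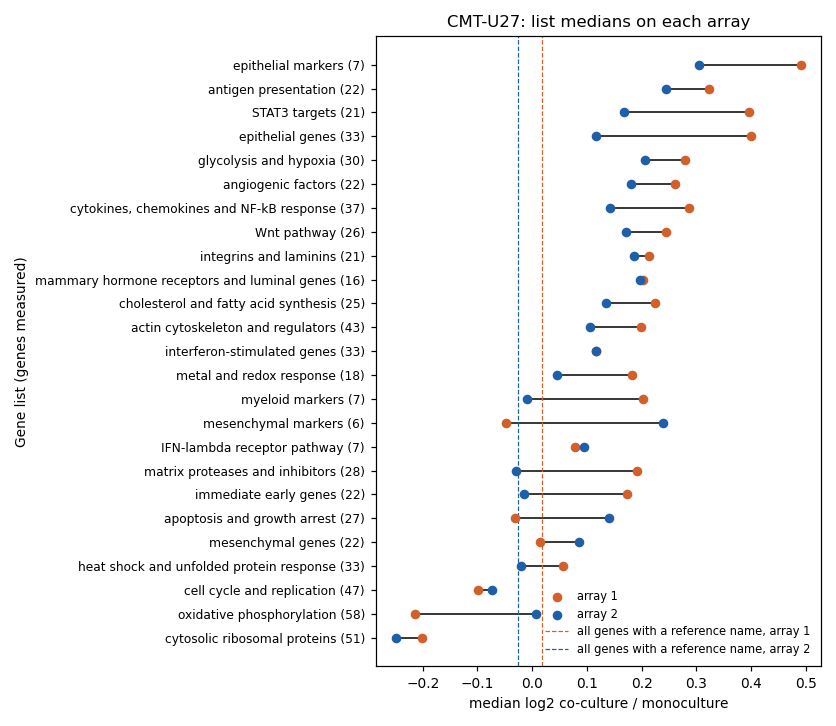
Median log2 ratio of co-culture over monoculture in CMT-U27 for each gene list, 1 probe per gene, with the number of genes measured in brackets. Orange and blue points are arrays 1 and 2, and dashed lines are the medians of all genes with a reference name. Antigen presentation, glycolysis and the epithelial lists lie to the right of both dashed lines, and cytosolic ribosomal proteins and the cell cycle list to the left.

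The genes the study followed up were chosen by it on these samples, so their values here are no independent evidence. IL28RA, the specific chain of the interferon-lambda receptor, had a single probe with signals of 7.63 against 2.51 on array 1 and 31.3 against 8.21 on array 2. It was well above background only in co-culture on array 2 and in neither monoculture channel, so its log2 ratios of 1.60 and 1.93 rest on signals near background. The mean of IL28RA over both arrays was 1.77 from the processed signals, 0.97 from the deposited ratios and 0.11 with the added offset of 50 and loess. The ligand IL28B had -0.45 and -0.11 and IL29 -0.13 and -0.89, with IL29 in co-culture measured on 1 array only. STAT3 itself had -0.07 and 0.10 at its brightest probe, and the other 3 STAT3 probes lay between 0.02 and 0.28. IL18 had -0.13 and 0.48, VIM -0.16 and 0.39, and VEGFC -0.84 and -0.00 at its brightest probe, so the size or the sign of each depended on the array. SEMA6C gave -0.07 and -0.35 at its brightest probe and 0.61 and 0.80 at another. MMP20 gave no signal above that limit in either culture. No probe carried the name IL28A, SEMA3B or RPS19.

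CMT-U27 matched its label at the epithelial markers. All 7 epithelial markers on the array, CDH1, CLDN3, CLDN4, CLDN7, EPCAM, KRT14 and KRT19, were well above background in all 4 channels. Of 8 mesenchymal markers on the array, 6 were measured in all 4 channels too, vimentin among them. Of 21 myeloid markers on the array, which would mark carried-over MDSCs, 7 were measured in all 4 channels and 9 in none. The 7 were S100A8, S100A9, CD68, CD86, CYBB, ITGB2 and MNDA. Those in none included ITGAM (CD11b), PTPRC (CD45), CSF1R, CD163, SPI1 and LYZ. CD68 had log2 ratios of 0.38 and 0.33, CYBB -0.35 and -0.25 and MNDA -0.51 and -0.31. CD86 and ITGB2 had opposite signs on the arrays. The summed signal of the 21 markers was 28598 in co-culture and 20109 in monoculture on array 1, and 16411 and 11668 on array 2. Most of it was S100A8, a calcium-binding protein of neutrophils that epithelia also make, with 19565 against 10492 and 11351 against 6564 and log2 ratios of 0.90 and 0.79. S100A9 had 0.60 and 0.77. TYROBP, CSF3R and MPO were well above background in monoculture only, and the part of myeloid RNA in the other values was not tested.

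Some probes were measurable in 1 culture only. On both arrays, 3320 probes were well above background in monoculture and on neither in co-culture, and 1 probe, of the flippase gene ATP8B4, the reverse. The co-culture channels had the lower signal given above, and its part in these numbers was not tested. For such probes a bound on the difference was taken, the mean log2 signal of the bright culture against a value of the dim culture. On each array that value was the dim probe's signal or the faintest signal well above background, whichever was higher. These bounds were taken on signals with the offset of 50 added, then loess and normalization between arrays, so they are small by construction for dim probes. The bound was above 1-fold for 2288 of the 3320. On the processed signals, 216 of the 3320 were at least 2-fold lower in co-culture on both arrays, measured against signals not well above background. By this bound ATP8B4 was 1.25-fold higher in co-culture, KRT17, a basal keratin, 1.14-fold lower and LEAP2 1.27-fold lower. For each of them the dim probe's own signal was the one used. Their values are therefore measured differences against a signal not well above background, and not assured minima.

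The 183 higher probes were also read in the other lines, where a signal well above background was not required. The CD74 probe was well above background in 0 channels of those lines and the CFL1 probe in 8. In CMT-U309, 167 of the 183 probes were above 0 on array 1 and 172 on array 2, with medians of 0.81 and 1.04. At least 2-fold higher on both of its arrays were 36 of the 183, and 59 of all 24539 probes. Among all measured probes, 51.3% and 47.3% were above 0 on those arrays. In P114 the arrays disagreed: 8 were above 0 on array 1, with a median of -0.80, and 143 on array 2, with a median of 0.45. Over the measured probes the arrays of P114 had a correlation of -0.17, and over all 43603 probes of -0.40, so the direction of the P114 ratios is not settled. The arrays of CMT-U309 had a correlation of 0.12. CMT-U27 array 1 correlated with CMT-U309 array 1 at 0.70, more than with its own dye swap, and P114 array 1 correlated with CMT-U27 array 2 at -0.44. Every line had a slide of its own, so that line and slide cannot be told apart.

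The difference between CMT-U27 and the mean of the other lines was tested with limma on the mean of each line's 2 arrays, which leaves 3 values per probe. Of 26841 probes well above background in at least 1 channel of every array, 0 (0%) passed a Benjamini-Hochberg adjusted p of 0.05, and 485 had an unadjusted p under 0.05. With 6 arrays fitted and the replicate number as a block, limma called 1 probe, annotated as sequestosome 1, an autophagy receptor, at an adjusted p of 0.0176. Its log2 ratios were 0.86 and 1.13 in CMT-U27, -1.75 and -1.37 in P114 and 0.25 and 0.29 in CMT-U309. The fit with the block treats a line's 2 arrays as replicates although they share their RNA. Its p-value therefore measures array error and not the spread between lines. CLDN7 differed by 1.83 (SE 0.33) and S100A8 by 1.17 (SE 0.30) in the fit of line means, both with a limma adjusted p of 1. None of the tested probes could therefore be called particular to CMT-U27 from the line means. Probes not well above background on every array, among them those named for CD74, RAB25, IL1RN, AGR2 and GBP1, were not in this test. Among the genes at which CMT-U27 stood highest, UCP2 differed by 1.72 (SE 0.59) and CFL1 by 1.26 (SE 0.59). Both were picked for their high ratios in CMT-U27, so these differences are no independent evidence. The P114 arrays disagreed at both, with -1.46 and 0.55 for UCP2 and -1.14 and 0.75 for CFL1.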

How the data were processed

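The authors deposited the scanner output of each array, made with Agilent Feature Extraction (10.10.1.1 in the file headers, 10.7.3.1 in the labels), with the intensity of each spot, its local background and processed signals that are background-subtracted, detrended and adjusted between dyes, with surrogates for low signals. They also deposited a table of log10 ratios, which held the scanner's log ratios turned to co-culture over monoculture. Neither was scaled between arrays.

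The log2 of the processed co-culture signal over the processed monoculture signal was taken per spot. Control spots and outlier spots (12 and 37 on the CMT-U27 arrays) were left out, and spots of a probe were averaged. A probe counted as past 2-fold if it was so on both arrays. Named genes were the 12 highest and 12 lowest by the smaller ratio, the study's genes, and from each of 26 lists up to 4 genes past 2-fold or otherwise the top 2. The members and lists were chosen with earlier results of these data known. Of 35582 gene names on the array, 12000 were in RefSeq's dog table (UU_Cfam_GSD_1.0). The lines were compared with limma 3.58.1 (lmFit, eBayes with a trend) in R 4.3.3. A run on simulated data held planted differences larger than those reported here, so it does not cover differences of this size. Arrays of the same number deviated together across lines (correlations of 0.39, 0.51 and 0.45). The number marks the dye orientation, and its part was not tested. Nothing in the labels gives more than 1 culture per line and condition, so p-values of the line means measure only the spread between lines. Those of the fit with the replicate block measure the error between arrays that share their RNA. Some genes are not reported here. Plots were drawn with matplotlib 3.10.9.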

Additional observations from a re-analysis of the deposited data

Results flagged for a closer look

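At 15 comparisons of named genes both CMT-U27 arrays went one way and both arrays of another line the opposite way. These differences were not tested one by one. The MMP13 probe was outside the fit across probes because of its background filter, and none of the others was called there. Values are CMT-U27's mean log2 ratio minus that of the other line. Against P114, whose arrays correlated negatively and leave its direction unsettled, the difference was 1.90 for DVL2, 1.61 for CLDN7, 1.35 for MMP13, 1.18 for DVL3, 1.09 for SEMA3F, 0.97 for BIRC3, 0.95 for RPL36, 0.88 for EGFR, 0.76 for EGR1 and 0.65 for SEL1L, all higher in CMT-U27. It was -1.10 for ABCC5, -0.82 for RPL35A and -0.44 for SEMA6C. Against CMT-U309 it was 1.44 for CLDN3 and 1.28 for S100A8. Of 56 named genes measured in CMT-U27 and P114, 13 were opposite in this way, against 18.1% of all probes measured in both; with the sign of P114 array 1, array 2 or both turned, a setting chosen after seeing the data, 6, 30 or 4 were, against 14.5%, 21.2% and 11.4%. Of 55 measured in CMT-U27 and CMT-U309, 2 were, against 4.69%.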

How the results depend on the processing

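The counts of 183 higher and 13 lower probes were within 1.5 times of their value with centring (186 and 10), deposited log10 ratios, outlier spots kept or the median over repeated spots. Normexp with an offset of 50 and loess gave 38 higher and 2 lower probes; an added offset shrinks the ratios of dim probes by construction. The correction for GC content, chosen after seeing the data, left 139 and 7. Without a filter on dim probes 1573 were higher and 345 lower, and with 1 channel per array well above background 195 and 232. With the mean of both arrays past 2-fold, 332 and 39 were. On a single array 516 to 546 probes were higher and 133 to 300 lower. The test between lines called 3 probes without a filter on dim probes, among them S100A16 and SULF1, the latter not well above background in any CMT-U27 channel. With the replicate block it called 1, and under the other fits 0. Without P114, 1 unnamed probe (TC62744) differed at least 4-fold from CMT-U309 on both arrays, with no test. Of 76 named genes, STAT3 changed the sign of its mean with normexp, and IL18, STAT3 and VIM with array 1 alone; no other named gene changed sign with normexp or on a single array. Where no cause is named, the cause was not tested. The promoter motifs could not be searched here. The number of arrays limits the precision, and 9584 probes were not well above background in any CMT-U27 channel.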
